A study of Equus caballus with 32 samples.

Results

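The nuclear genes of respiratory complexes II to V were described in cells of the equine tracheal wash (TW), the fluid flushed from the lumen of the trachea. Members were the rows of the deposited expression table whose gene symbol is SDHA, SDHB, SDHC, SDHD or CYC1, or begins with UQCR, COX4 to COX8, COX10 to COX19 or ATP5, which gave 46 of 21357 genes. Of these, 3 belong to complex II, 7 to complex III, 21 to complex IV (13 subunits and 8 assembly factors) and 15 to complex V. In the inner mitochondrial membrane, complex II (succinate dehydrogenase) passes electrons from succinate to ubiquinone, complex III (the cytochrome bc1 complex) passes them on to cytochrome c, and complex IV (cytochrome c oxidase) hands them to oxygen. Complexes III and IV pump protons, and complex V (ATP synthase) lets the protons flow back while it makes ATP. All of complex II is encoded in the nucleus, whereas complexes III, IV and V join nuclear subunits to a few made from mitochondrial DNA. Alveolar and airway macrophages rely on this chain at rest, while neutrophils hold few mitochondria and live mostly on glycolysis.

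The 32 libraries came from 16 horses, each washed at T1 (training period, about 2.5 months into an intense program) and at T0 (resting period, about 2 months at rest). All were adult male Thoroughbreds of 1 yard and 1 trainer. By T1 cytology, 3 horses (2, 3 and 10) had a high neutrophil count (High_N) and 13 did not. By haemosiderophages in the T1 wash, 11 horses had exercise-induced pulmonary haemorrhage (EIPH) and 5 were unaffected (4, 9, 10, 11 and 16). Horse 10 was both High_N and unaffected. Training cannot be told apart from the season, the stabling and the races that came with it.

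The values, as deposited, behave as log2 levels adjusted for library size. They are not counts, and the depth behind each value is unknown. A change is the T1 level minus the T0 level on that scale, and was tested with limma across all genes with a mean log2 level of at least 3, with the horse as block. "Rose" and "fell" are used where the Benjamini-Hochberg adjusted p over all genes tested (the false discovery rate, FDR) was under 0.05. Macrophage markers were high throughout (mean of 12 genes, 13.73 to 14.84 at T1 and 13.40 to 15.01 at T0), the cell type that makes up much of a wash. The ciliated epithelium list (21 genes) averaged 7.96 to 11.96 at T1 and 8.004 to 12.01 at T0, so epithelial RNA varied widely between washes. In such mixed samples, fewer cells of a type and less RNA per cell cannot be told apart. The T1 libraries of horses 16, 1 and 14 stood farthest from the median profile of all 32 libraries (Spearman correlations of 0.937, 0.940 and 0.942).

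Genes of complexes III, IV and V rose at T1, 8 of them structural subunits of complex IV, and no gene of complex II was called. Of the 43 members that could be tested, 18 rose and 0 fell, where 3.89% of all 14643 genes rose and 2.47% fell. The median change of the members was 0.21, against -0.02 over all genes, and 40 of 43 were above 0, as were 46.4% of all genes. The 18 that rose were 4 of 7 members of complex III, 8 of 10 tested subunits and 1 of 8 assembly factors of complex IV, and 5 of 15 members of complex V. At an unadjusted p below 0.05, 21 of 43 members passed, 20 of them higher at T1, as did 28.5% of all genes. The study itself named 7 of the complex IV genes (COX14, COX5B, COX6A1, COX6B1, COX7A1, COX7A2 and COX8A) as higher in training in these same samples. It also reported oxidative phosphorylation and mitochondrial dysfunction among the functions enriched in its differentially expressed genes. All 18 calls rest on the libraries that the study analysed, so none is independent evidence of the direction.

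**Figure D1:**
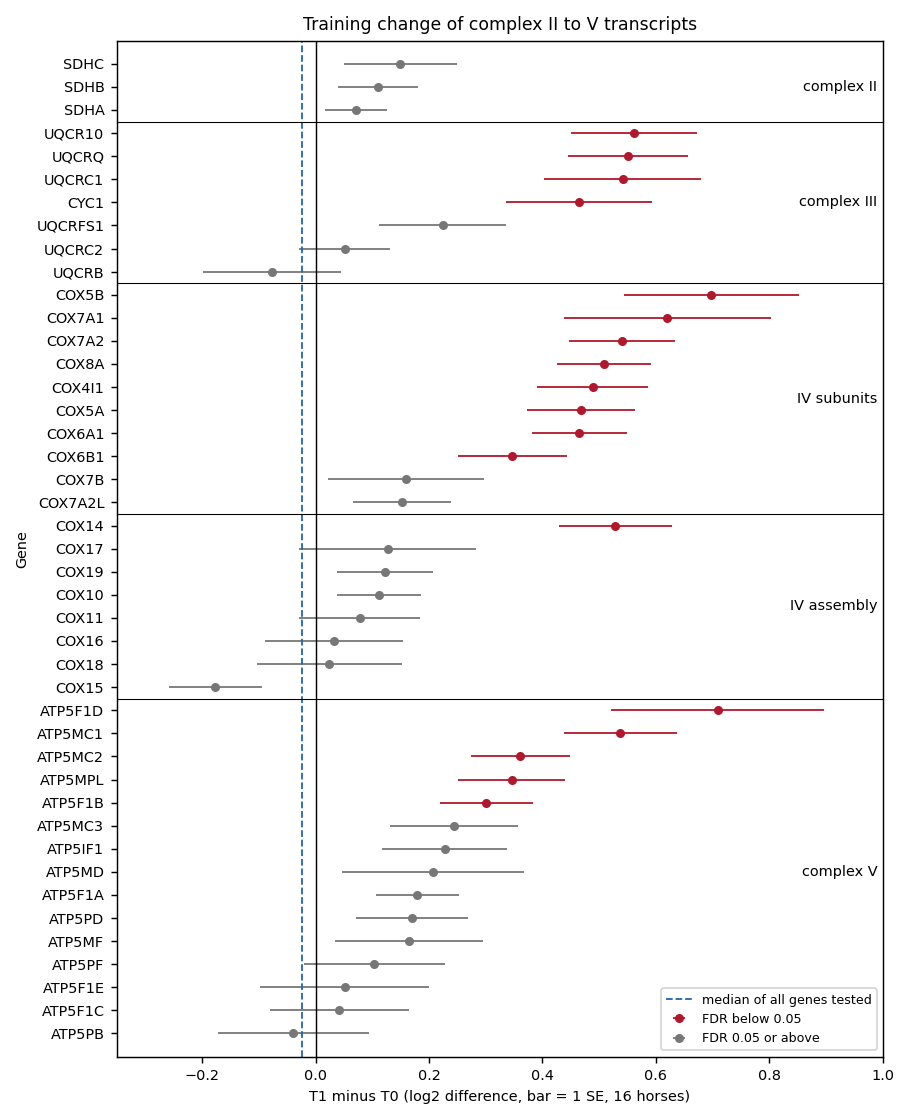
Fitted change of each of the 43 tested members (x axis, T1 minus T0 as a log2 difference, bar = 1 SE, 16 horses), grouped by complex. Red points passed the FDR of 0.05. They fill most of the complex IV subunits and 4 of the 7 rows of complex III, while the 3 genes of complex II lie between 0.07 and 0.15.

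Complex II had the smallest median change of the 4 complexes (0.11, against 0.46 for III, 0.25 for IV and 0.21 for V). SDHA, the flavoprotein that oxidises succinate, had log2 levels of 12.11 to 12.50 at T1 with a median of 12.25, against 11.89 to 12.45 with a median of 12.21 at T0. The ranges nearly coincided, and the change was 0.07 ± 0.05 (SE, n = 16 horses, adjusted p = 0.423), higher at T1 in 11 of 16. SDHB, the iron-sulfur subunit, changed by 0.11 ± 0.07 (adjusted p = 0.322). SDHC, a membrane anchor, changed by 0.15 ± 0.10 (adjusted p = 0.344). The SD of the SDHA change over horses was 0.15, against 0.25 for SDHB and 0.40 for SDHC.

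SDHA also served as the reference gene of the quantitative PCR in this study, so every PCR ratio there is divided by this transcript. Its stability in these RNA data was among the reasons for the choice, beside its earlier use in horses under exercise, which makes its small change here no independent evidence of stability. The 2 primers with which it was amplified are shown because the denominator of those ratios rests on them, in lower case and read 5′ to 3′.
SDHA forward primer: ggacagagcctcaagtttgg
SDHA reverse primer: gtatcatatcgtagagaccttccata
The RNA changes of the 3 genes described next were set against that of SDHA in each horse. The change of COX8A exceeded that of SDHA by 0.44 ± 0.07 (SE, n = 16), in 15 of 16 horses. COX7A2 exceeded it by 0.47 ± 0.08 in 14 of 16 horses. COX14 exceeded it by 0.46 ± 0.09 in 15 of 16. These genes were picked with their changes known, so the differences are given without a test.

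COX8A, the widely expressed form of a small membrane subunit of cytochrome c oxidase, had the lowest adjusted p of all members. Its T1 levels ran from 11.82 to 12.95 with a median of 12.31, against 11.34 to 12.28 with a median of 11.90 at T0. The groups overlapped, but 8 of the 16 T1 libraries lay above every T0 library. COX8A rose by 0.51 ± 0.08 (SE, limma adjusted p = 0.0084). All 16 horses had more at T1, from 0.02 in horse 9 to 1.09 in horse 3. COX7A2, the widely expressed form of subunit 7A, had T1 levels of 8.83 to 9.93 (median 9.09), against 8.21 to 9.28 (median 8.68) at T0. It rose by 0.54 ± 0.09 (adjusted p = 0.0111), with 16 of 16 horses higher at T1, although 3 T1 libraries alone lay above the T0 range. COX14 is an assembly factor that holds the newly made mitochondrial subunit 1. Its levels were 10.10 to 11.49 (median 10.51) at T1, against 9.42 to 10.57 (median 10.09) at T0. It rose by 0.53 ± 0.10 (adjusted p = 0.0147), again in 16 of 16 horses, and 7 T1 libraries exceeded every T0 library. Of all genes tested, 0.164% were higher at T1 in all 16 horses.

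**Figure D2:**
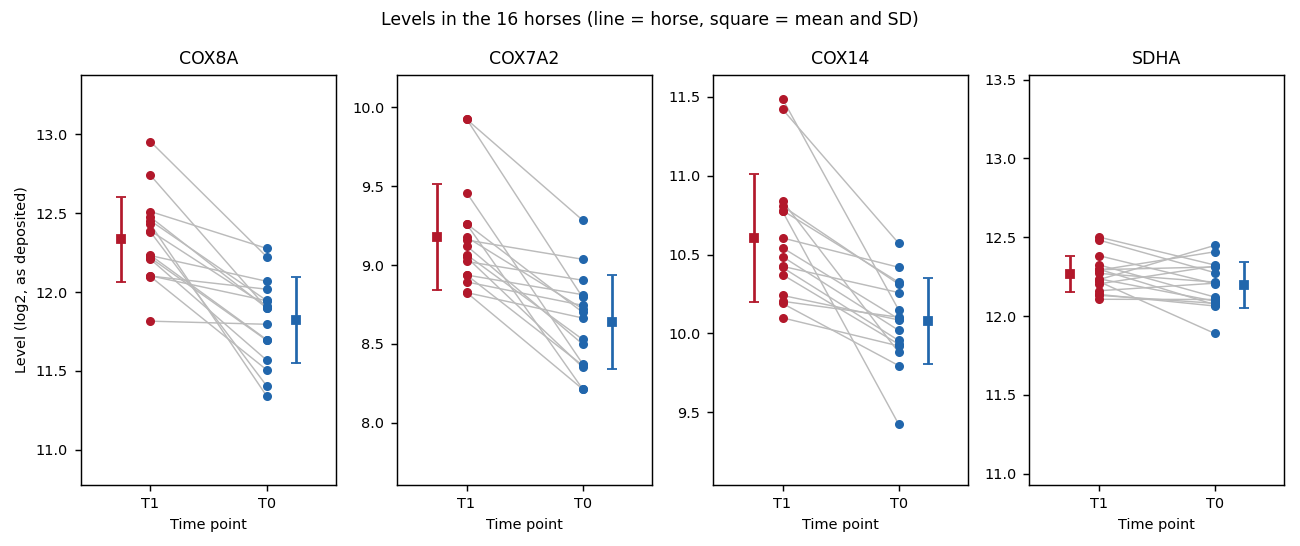
Log2 levels (y axis, each panel spans the same range of log2 units) of COX8A, COX7A2, COX14 and SDHA at T1 and T0, with 1 line per horse and squares for the mean and SD of 16 horses. All 16 lines slope the same way for COX8A, COX7A2 and COX14, while those of SDHA cross, with 11 of 16 higher at T1.

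In complex III, 4 members rose by similar amounts and 3 did not pass. UQCR10, a small subunit near cytochrome c1, had T1 levels of 10.79 to 12.37 (median 11.19), against 10.09 to 11.47 (median 10.62) at T0. It rose by 0.56 ± 0.11 (adjusted p = 0.0179), in 15 of 16 horses. UQCRQ, another small subunit, had T1 levels of 11.71 to 13.40 (median 12.12), against 11.15 to 12.68 (median 11.60) at T0. It rose by 0.55 ± 0.11 (adjusted p = 0.0148), and no horse was lower at T1. UQCRC1, a core protein on the matrix side, had T1 levels of 12.02 to 14.28 (median 12.58), against 11.91 to 12.60 (median 12.24) at T0, and 8 of 16 T1 libraries lay above the T0 range. It rose by 0.54 ± 0.14 (adjusted p = 0.0369). CYC1, the cytochrome c1 that passes the electron to cytochrome c, had T1 levels of 11.15 to 13.34 (median 12.08), against 11.26 to 12.39 (median 11.72) at T0. It rose by 0.46 ± 0.13 (adjusted p = 0.0435).

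UQCRFS1, the Rieske iron-sulfur protein, changed by 0.22 ± 0.11 (adjusted p = 0.200). UQCRC2, the partner core protein of UQCRC1, changed by 0.05 ± 0.08 (adjusted p = 0.719), although 11 of 16 horses were higher at T1. UQCRB had the lowest change of the complex, -0.08 ± 0.12 (adjusted p = 0.722), with T1 levels of 10.58 to 11.94 against 11.11 to 12.04 at T0. It was lower at T1 by 1.21 in horse 10 and by 1.06 in horse 1, and 0 T1 libraries lay above its T0 range.

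Among the structural subunits of complex IV, 8 of the 10 tested rose, with a median change of 0.48 over the 10. COX5B, a zinc-binding subunit on the matrix side, had T1 levels of 11.71 to 14.09 (median 12.07), against 11.11 to 12.27 (median 11.63) at T0. It rose by 0.70 ± 0.15 (adjusted p = 0.0271), with 14 of 16 horses higher at T1 and changes of 1.86 in horse 15 and 1.83 in horse 1. COX4I1, the common form of the largest nuclear subunit, had T1 levels of 12.65 to 14.34 (median 13.15), against 12.39 to 13.42 (median 12.72) at T0. It rose by 0.49 ± 0.10 (adjusted p = 0.0188) in 15 of 16 horses. COX5A rose by 0.47 ± 0.09 (adjusted p = 0.0199) and was also higher in 15 of 16. COX6A1, the non-muscle form of subunit 6A, had T1 levels of 12.11 to 13.16 (median 12.38), against 11.46 to 12.53 (median 12.04) at T0, and rose by 0.47 ± 0.08 (adjusted p = 0.0139). COX6B1 rose by 0.35 ± 0.10 (adjusted p = 0.0439).

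Several subunits of complex IV come in forms tied to a tissue. Subunit 7A has a muscle form, COX7A1, a widespread form, COX7A2, and a related protein, COX7A2L, that sits between complexes III and IV. COX7A1 had the largest SD of the change among complex IV members (0.77). Its T1 levels ran from 7.21 to 9.73 (median 8.55), against 6.91 to 9.45 (median 7.95) at T0. It rose by 0.62 ± 0.18 (adjusted p = 0.0492), just inside the threshold, in 11 of 16 horses and with changes from -0.45 in horse 3 to 1.96 in horse 14. COX7A2L changed by 0.15 ± 0.09 (adjusted p = 0.260), and COX7B, a small membrane subunit, by 0.16 ± 0.14 (adjusted p = 0.478). The alternative forms COX4I2 (hypoxia and lung), COX6A2 (muscle) and COX6B2 (testis) stayed below the minimum level and were not tested. COX4I2 had log2 levels of 0.87 to 1.801 at T1 and 0.88 to 1.68 at T0. COX6A2 had 0.07 to 0.81 at T1 and 0.06 to 0.61 at T0. COX6B2 lay between -1.82 and -1.67 at T1 and between -1.83 and -1.77 at T0, among the lowest values of the table.

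Of the assembly factors of complex IV, 1 of 8 was called, with a median change of 0.10, against 0.48 for the subunits, a difference that was not tested. Apart from COX14, the changes ran from -0.18 to 0.13. COX10 and COX15 make the heme A of the enzyme. COX10 changed by 0.11 ± 0.07 (adjusted p = 0.333), while COX15 had the lowest change of all members, -0.18 ± 0.08 (adjusted p = 0.163), with 3 of 16 horses higher at T1. The copper handlers COX11, COX17 and COX19 changed by 0.08, 0.13 and 0.12, with COX17 ranging between horses from -1.19 to 0.98. COX16 and COX18, which help to mature subunit 2, changed by 0.03 and 0.02. None of these 7 passed the threshold (adjusted p from 0.163 to 0.924).

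In complex V, 5 of 15 members rose, 2 of 5 in the F1 head, 2 of 3 in the c ring and 1 of 3 small membrane subunits. In the catalytic F1 head, ATP5F1D (delta, in the central stem) had T1 levels of 11.55 to 14.60 (median 12.65), against 11.36 to 12.88 (median 12.18) at T0. It rose by 0.71 ± 0.19 (adjusted p = 0.0405), the largest fitted change of any member, and its changes were 2.32 in horse 1, 2.19 in horse 15 and 1.95 in horse 3. ATP5F1B, the catalytic beta subunit, had T1 levels of 13.88 to 14.57 (median 14.22), against 13.52 to 14.30 (median 13.86) at T0, and rose by 0.30 ± 0.08 (adjusted p = 0.0412) with an SD of the change of 0.29, against 0.82 for ATP5F1D. The alpha subunit, ATP5F1A, changed by 0.18 ± 0.07 (adjusted p = 0.117). ATP5F1C (gamma) and ATP5F1E (epsilon) changed by 0.04 ± 0.12 and 0.05 ± 0.15.

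The c ring turns as protons pass, and 3 genes encode the same mature c subunit behind different import sequences. ATP5MC1 had T1 levels of 10.99 to 12.26 (median 11.18), against 10.30 to 11.31 (median 10.74) at T0, and rose by 0.54 ± 0.10 (adjusted p = 0.0147) in 15 of 16 horses. ATP5MC2 rose by 0.36 ± 0.09 (adjusted p = 0.0340) in 14 of 16, and 7 T1 libraries lay above its T0 range. ATP5MC3 changed by 0.24 ± 0.11 (adjusted p = 0.163), higher in 12 of 16. The outer stalk keeps the head from turning, and 0 of its 3 members were called. ATP5PB was at -0.04 ± 0.13 (adjusted p = 0.881), ATP5PD at 0.17 ± 0.10 and ATP5PF at 0.10 ± 0.12. At an unadjusted p below 0.05 these 3 also gave 0 in limma. A further stalk subunit, OSCP, has a row without a symbol and so is not a member. That row rose by 0.30 ± 0.08 (limma adjusted p = 0.0460). Of the small membrane subunits, ATP5MPL rose by 0.35 ± 0.09 (adjusted p = 0.0415), while ATP5MF and ATP5MD changed by 0.16 ± 0.13 and 0.21 ± 0.16. ATP5IF1, which stops the enzyme from running backwards, changed by 0.23 ± 0.11 (adjusted p = 0.182).

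How firmly a call held differed between members. COX8A, COX7A2, COX14, COX6A1, COX4I1, UQCRQ, UQCR10 and ATP5MC1 passed in all 16 fits that left out 1 horse, and COX5A in 15. COX5B passed in 11 and ATP5MC2 in 8, and the other 7 called members in 4 to 6. With 1 horse left out the count of members called was between 8 and 18, and it was 8 without horse 6, 9 without horse 3, 15 or 16, and 10 without horse 1, 4, 8, 11 or 14. The calls over all genes fell as well. Of all genes, 0.457% rose without horse 6, 0.704%, 0.594% and 0.732% without horses 3, 15 and 16, and 0.820% to 1.15% without horse 1, 4, 8, 11 or 14, against 3.89% with all horses. Without the pairing of horses, 2 of 43 members passed (COX8A and COX7A2), and 0.0956% of all genes rose. Without the 3 High_N horses, 2 passed (COX8A and COX6A1), and 0.164% of all genes rose. Within the 11 EIPH horses, 0 members and 0 of all genes passed, with 19 of 43 members and 19.6% of all genes at an unadjusted p below 0.05. Within the 5 unaffected horses, 0 members and 0 of all genes passed, with 13 of 43 members and 14.6% of all genes unadjusted. With the mean of the neutrophil list as a covariate, 0 members passed (smallest adjusted p = 0.341) and 1 of all 14643 genes rose, with 17 of 43 members and 8.17% of all genes unadjusted. The median change of the members was then 0.18, with 39 of 43 above 0. With the ciliated list as covariate, all 18 were called, and 9.87% of all genes rose.

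In most horses, most members were higher at T1. The median change of the 43 members was highest in horses 14 (0.95), 6 (0.79) and 3 (0.62), and lowest in horses 13 and 15 (both -0.10) and 1 (0.01). In horse 6, 42 of 43 members were higher at T1, against 12 of 43 in horse 13. The median correlation between the changes of 2 members over the 16 horses was 0.51, over 903 pairs that share the same libraries, and 147 pairs were below 0. No such value for all genes was set beside it. Without horses 3, 6 and 14 the median correlation was 0.22, and 356 pairs were below 0. The median change was then 0.08 and all 10 complex IV subunits were still above 0. In that fit 0 members passed and 0.0682% of all genes rose, with 19 of 43 members and 18.6% of all genes at an unadjusted p below 0.05.

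In horses 1 and 15 the members split in 2 directions. Of the 18 called members, 17 were higher at T1 in both horses, and of the 25 not called, 20 were lower at T1 in both. Of all genes, 36.1% were higher in both and 37.1% lower in both. ATP5F1D changed by 2.32 and 2.19 in horses 1 and 15, and COX5B by 1.83 and 1.86. ATP5PB changed by -1.43 and -1.08, and ATP5F1C by -1.11 and -0.87. By complex, 8 of 10 complex IV subunits were higher in both, whereas 9 of 15 complex V members and all 3 of complex II were lower in both. These 2 horses also enter the fit that made the calls, so the split is a description. Without them, 2 of 43 members passed (COX7A2 and COX8A), where 0.232% of all genes rose. An unadjusted p below 0.05 was reached by 31 of 43 members and 22.6% of all genes, and 42 of 43 members had a change above 0. The median change was then 0.29. The median of complex II was 0.17, of complex III 0.35, of complex IV subunits 0.46 and of complex V 0.28. ATP5PB changed by 0.13 and UQCRB by 0.02 without them, both with the sign turned.

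**Figure D3:**
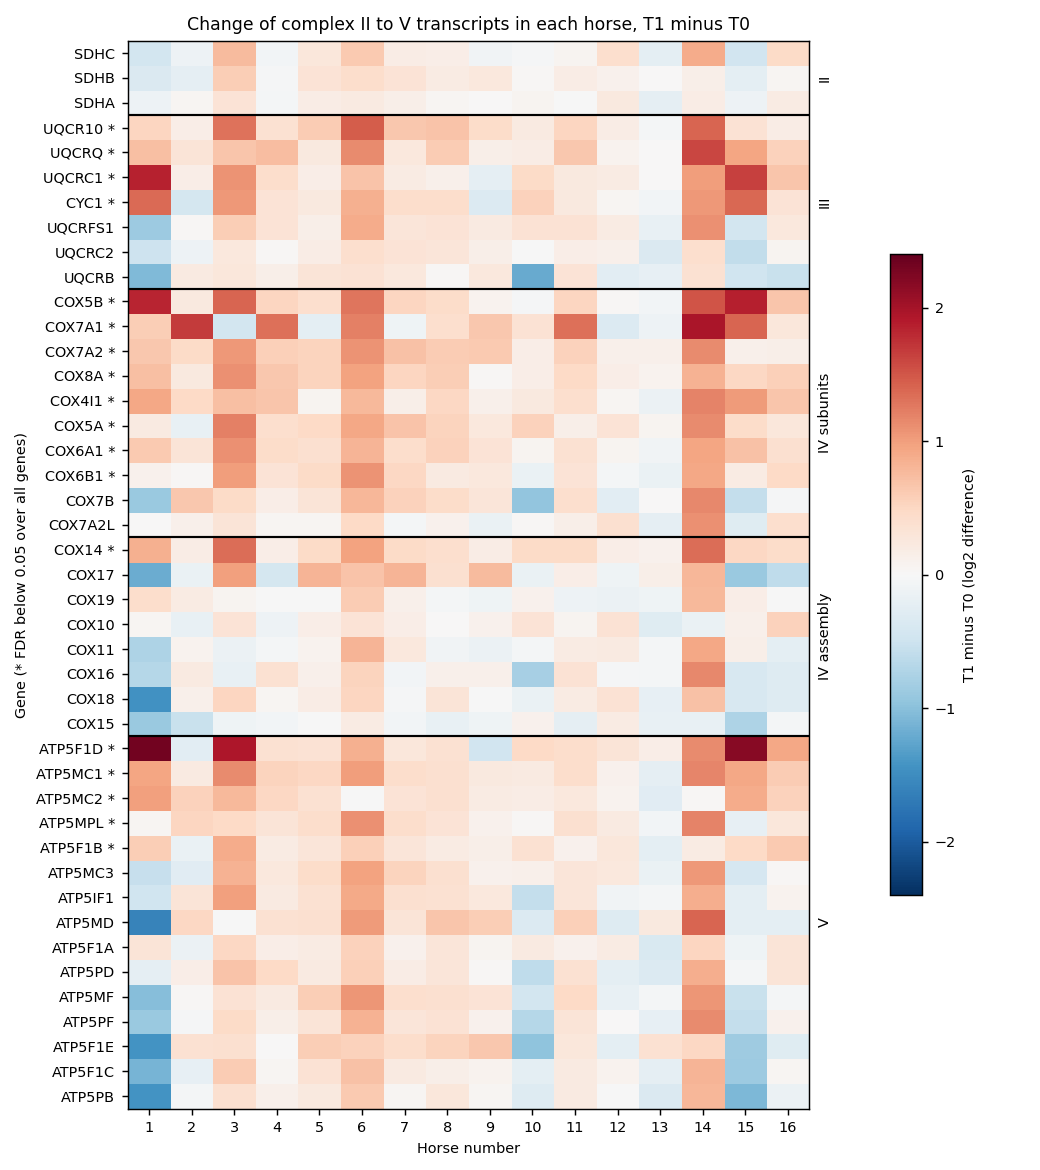
Change of each tested member (rows, by complex, * FDR below 0.05) in each of the 16 horses (columns), T1 minus T0 as a log2 difference, red where T1 was higher and blue where it was lower. Horses 3, 6 and 14 are red in nearly all rows, while horses 1 and 15 hold red and blue rows side by side, with the highest change (ATP5F1D, 2.32) and the lowest (ATP5MD, -1.61) both in horse 1.

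The rest of the mitochondrial programme was compared by lists chosen with earlier results of these data known. Beside their counts stand the shares over all genes, of which 3.89% rose, 2.47% fell and 28.5% had an unadjusted p below 0.05. Nuclear subunits of complex I, which feeds electrons from NADH into the chain, were counted first, and 12 of 31 rose and 0 fell, with a median change of 0.29. NDUFB11 rose by 0.51 ± 0.09 (adjusted p = 0.0139) and NDUFA13 by 0.67 ± 0.15 (adjusted p = 0.0254). Subunits of complexes IV and V made from mitochondrial DNA had 0 of 5 called in limma and 0 at an unadjusted p below 0.05, with a median of -0.12. MT-CYB, the listed subunit of complex III, was not among the genes tested. MT-CO3 changed by 0.14 ± 0.20 and MT-ATP6 by -0.14 ± 0.23. The 4 complex I subunits from mitochondrial DNA that were tested had a median of -0.22, with 0 called and 0 at an unadjusted p below 0.05. Among other factors that build or bind complexes II to V, 5 of 31 rose (median 0.08), led by PET100, a complex IV assembly protein, at 0.56 ± 0.10 (adjusted p = 0.0147). COA7 rose by 0.38 ± 0.09 and COA3, which works with COX14, by 0.46 ± 0.12.

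In the citric acid cycle, 2 of 16 genes rose (median 0.06), where 3.89% of all genes did. Those were IDH3B, by 0.36 ± 0.09, and MDH2, by 0.33 ± 0.09. Of 13 regulators of mitochondrial genes, 0 rose and 1 fell (2.47% of all genes fell). That was TFAM, which packages and transcribes mitochondrial DNA, at -0.38 ± 0.10 (adjusted p = 0.0405) and lower in 15 of 16 horses. Cytosolic ribosomal proteins, a family outside the mitochondrion, had 29 of 54 rows called, 0 lower, and a median of 0.35, above that of the members. RPL11 holds separate rows there (limma adjusted p = 0.0723 and 0.0726), so the 54 counts rows and not symbols. A further 8 rows carry no symbol but are described as subunits in the table, and 7 of them were tested. Of those 7, 2 rose: cytochrome b-c1 subunit 10 by 0.64 ± 0.09 (adjusted p = 0.00441, 16 of 16 horses) and the ATP synthase subunit OSCP by 0.30 ± 0.08 (adjusted p = 0.0460, 14 of 16). The row described as SDH subunit D changed by 0.02 ± 0.12, close to its partners in complex II.

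**Figure D4:**
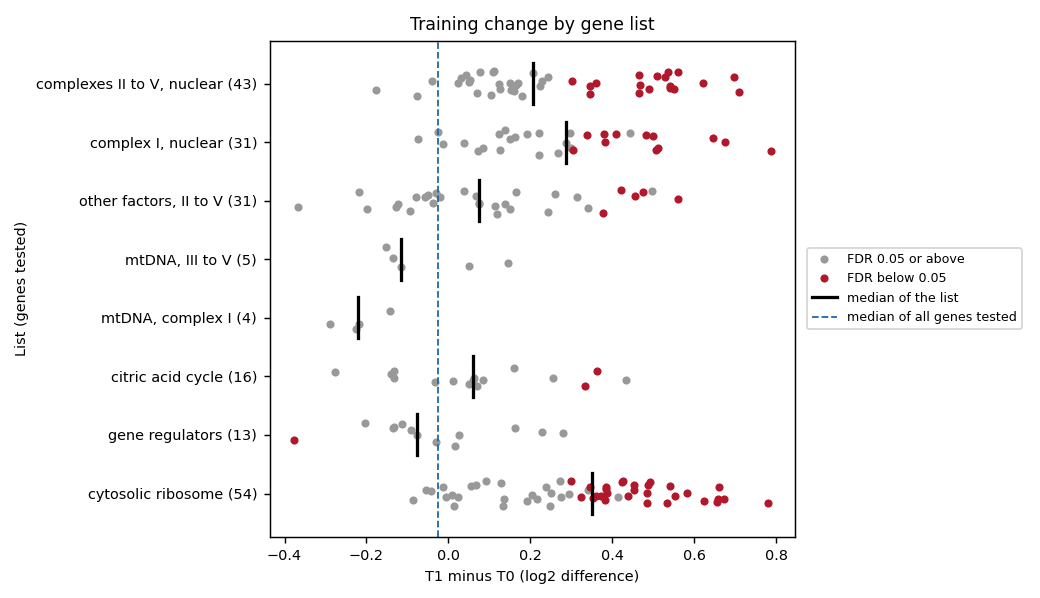
Training change of each gene (x axis, T1 minus T0 as a log2 difference) by list (y axis, number of genes tested in brackets), with red for FDR below 0.05, black bars for the list medians and a dashed line for the median of all genes. The medians of the nuclear lists for complexes II to V and complex I and of the ribosomal list lie right of the line. Those of the mitochondrial DNA lists and of the list of gene regulators, which are nuclear genes, lie left of it.

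The neutrophil list averaged 9.0002 to 11.06 at T1 and 8.51 to 9.87 at T0, was higher at T1 in 11 of 16 horses, and had 1 of 12 genes called (RETN, 0.69 ± 0.15), 5 of 12 at an unadjusted p below 0.05, all higher at T1, and a median change of 0.45. The macrophage list had 0 of 12 called (2 unadjusted) and a median of 0.06, and the ciliated list 0 of 21 (1 unadjusted) and a median of -0.05. The T cell list had 0 of 13 called (0 unadjusted) and the B cell list 0 of 7 (0 unadjusted). Of 4 squamous and secretory epithelium genes, 1 rose (SCGB1A1, 0.83 ± 0.19, the only one unadjusted), and of 2 erythroid genes, 0 did (1 unadjusted). For comparison with these counts, 3.89% of all 14643 genes rose and 2.47% fell. An unadjusted p below 0.05 in limma was reached by 28.5% of all genes (4169, of which 1918 had a positive change). How the members' calls stood with the neutrophil and ciliated lists as covariates is given above.

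No difference between High_N horses and the others in these genes passed the threshold, in comparisons that hold only 3 High_N horses. At T1, 0 of 43 members passed in either direction in limma and 0 had an unadjusted p below 0.05. Of all 14630 genes, 0.164% were called higher in High_N horses, 0% lower, and 2.78% had an unadjusted p below 0.05. The median difference, High_N minus other horses, was -0.05, with 12 of 43 above 0 (49% of all genes). The lowest was COX16, with T1 levels of 8.19, 7.996 and 7.36 in High_N horses 2, 3 and 10, against 7.83 to 9.25 (median 8.24) in the 13 others. The difference was -0.45 ± 0.25 (adjusted p = 0.9997). UQCRB had T1 levels of 11.57, 11.48 and 10.58 in High_N horses 2, 3 and 10, against 10.98 to 11.94 (median 11.57) in the others. Its difference was -0.31 ± 0.22, and it was 0.0033 without horse 10. COX8A had T1 levels of 12.51, 12.43 and 12.10 in High_N horses and differed by 0.02 ± 0.19. SDHA differed by -0.07 ± 0.13. In the same comparison, 3 of 12 neutrophil markers were called higher in High_N horses (median 1.202). High_N was itself set by the neutrophil count, so this is no separate result.

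The same horses showed no call at T0, before they were classed. Of 43 members, 0 passed in limma and 0 had an unadjusted p below 0.05, against 0% of all genes called and 3.37% unadjusted. SDHA at T0 was 12.22, 11.89 and 12.06 in horses 2, 3 and 10, against 12.07 to 12.45 (median 12.21) in the other 13. The difference was -0.17 ± 0.10 (unadjusted p = 0.095).

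Horses with EIPH had slightly higher mean levels of nearly all members at T1, but no difference passed the threshold. Of 43 members, 0 were called in limma, where 0% of all genes were, and 3 had an unadjusted p below 0.05 (18.3% of all genes did). The difference of means, EIPH minus unaffected, was above 0 for 41 of 43 members (51.7% of all genes). Its median was 0.16, against 0.02 for all genes. The members share the same libraries, so their signs are not separate observations. ATP5F1D had the largest difference, 0.66 ± 0.36 (limma adjusted p = 0.348), yet its class medians ran the other way. They were 12.64 in EIPH horses and 12.67 in unaffected ones. CYC1 had T1 levels of 11.98 to 13.34 (median 12.15) in the 11 EIPH horses, against 11.81, 11.15, 12.28, 11.999 and 12.04 in unaffected horses 4, 9, 10, 11 and 16. The difference was 0.54 ± 0.24 (SE, limma adjusted p = 0.245). COX5A had T1 levels of 11.46 to 12.59 (median 11.85) in EIPH horses, against 11.46, 11.46, 11.77, 11.39 and 11.52 in the same 5 horses. Here 8 of the 11 EIPH horses lay above all unaffected horses, and the difference was 0.35 ± 0.15 (adjusted p = 0.241).

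UQCR10 had T1 levels of 10.86 to 12.37 (median 11.30) in EIPH horses, against 10.86, 10.90, 10.85, 11.44 and 10.79 in the unaffected. The difference was 0.44 ± 0.21 (adjusted p = 0.273). COX7A1 went the other way, with 7.21 to 9.65 (median 8.30) in EIPH horses, against 9.21, 8.78, 8.03, 9.59 and 9.73 in the unaffected, a difference of -0.63 ± 0.36 (adjusted p = 0.373). With scores for cell composition (means of the neutrophil, T cell and ciliated lists) in the fit, the COX7A1 difference was 0.08. The ciliated epithelium markers were lower in EIPH horses at T1 (median difference -1.48, 0 of 21 called and 19 unadjusted). The mean of that list ran from 7.96 to 11.48 in EIPH horses and from 9.81 to 11.96 in unaffected ones. With the cell composition scores in the fit, 35 of 43 members were above 0 with a median of 0.15, and 0 were called. Shifting all libraries to 1 median moved the median of all genes from 0.02 to 0.13 in this comparison. On that scale 42 of 43 members were above 0 and their median was 0.28, which is 0.14 above that of all genes.

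**Figure D5:**
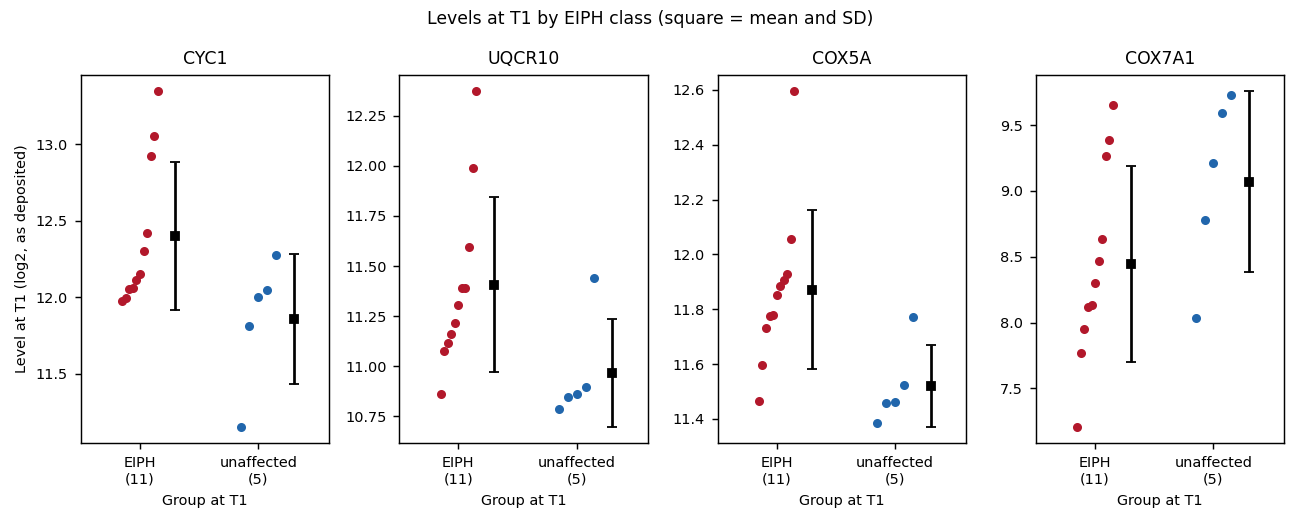
Log2 levels at T1 (y axis, own range per panel) of CYC1, UQCR10, COX5A and COX7A1 in 11 EIPH and 5 unaffected horses, with squares for the mean and SD. The EIPH horses lie higher for CYC1, UQCR10 and COX5A and lower for COX7A1, with overlap in all panels.

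At T0, the horses later classed as EIPH differed from the unaffected in 0 of 43 members in limma, against 0% of all genes, and 1 member had an unadjusted p below 0.05 (1.17% of all genes). That was COX10, with 8.62 to 9.35 (median 9.07) in the EIPH horses, against 8.79, 8.73, 8.71, 8.79 and 8.26 in the unaffected at T0, a difference of 0.34 ± 0.14 (adjusted p = 0.939). The median over the members was 0.05.

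The size of the training change was not shown to depend on either class. For High_N against other horses, 0 of 43 members had a different change in limma, with 0 at an unadjusted p below 0.05 (0% and 1.17% of all genes). The median difference of changes was -0.0015, with 21 of 43 above 0 (51.2% of all genes). COX14, for example, changed by 0.19, 1.35 and 0.45 in High_N horses 2, 3 and 10, against 0.10 to 1.34 (median 0.46) in the others. For EIPH against unaffected horses, 0 of 43 passed and 0 had an unadjusted p below 0.05 (0% and 1.49% of all genes). The difference was above 0 for 37 of 43 members (52% of all genes), with a median of 0.14. The largest was ATP5F1D, which changed by -0.25 to 2.32 (median 0.37) in EIPH horses, against 0.37, -0.47, 0.47, 0.42 and 0.92 in unaffected horses 4, 9, 10, 11 and 16. The difference of changes was 0.53 ± 0.40 (adjusted p = 0.982). The class medians ran the other way, 0.37 in EIPH horses and 0.42 in unaffected ones.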

How the data were processed

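The authors removed adaptors and low-quality bases (cutadapt, with FastQC and MultiQC for quality), then estimated transcript abundance against EquCab3.0 by kallisto 0.46.0.1, which divides reads shared by near-identical gene copies by an estimate. The deposited table carries a title of raw counts. The values, as deposited by the authors, are fractional, run from -2.36 to 21.3 and behave as log2 levels adjusted for library size. The step that made them is not given in the sources used here. A planned count test was therefore replaced by limma, and alternatives that need counts were not run.

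Of 21357 rows, 1899 that were 0 throughout were dropped. A mean log2 level of at least 3 over the libraries compared was required, which left out 3 of the 46 members. Comparisons used limma 3.58.1 (R 4.3.3, trended empirical Bayes), with Benjamini-Hochberg adjustment over all genes tested and the FDR at 0.05. Training used the horse as replicate block, as the study states a paired design. Libraries of 1 horse tended to deviate together from the group means (median correlation 0.35, range -0.51 to 0.79, over 0.1 in 12 of 16 horses), against -0.03 for pairs of different horses. The best match bore the same horse number in only 3 of 16 horses. High_N and EIPH classes come from the study's cytology. Interactions were tested by comparing the within-horse differences, T1 minus T0, between the classes. The scripts were tested on simulated data. The number of table columns mapped to no sample was 0. Figures were drawn with matplotlib 3.10.9.

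The members and lists were chosen with earlier results of these data known. Genes named in the text are COX8A, COX7A2, COX14 and SDHA, the smallest p per complex (4 for training, 2 elsewhere), the highest and lowest training change per complex, the isoform families, the members below the minimum and up to 3 genes per other list. Further members are named to complete a complex, after their values were seen. Cell composition scores were the means of 3 marker lists (neutrophil, T cell and ciliated epithelium), with no macrophage score among them. Classes by protein length and promoter motifs had been planned and were not analysed here.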

Additional observations from a re-analysis of the deposited data

Results flagged for a closer look

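Among the 24 groups of 5 unaffected horses that were examined, 4 held a horse whose gap to the nearest of the others was large for the group's range by Dixon's test. Chance gives about 1 in 20 for separate groups that were not picked. These groups reuse the same 5 horses, and their genes were picked by p in the EIPH comparisons, so that rate is only a rough guide. UQCR10 at T1 was 11.44 in horse 11, against 10.90 in the nearest of the others. COX10 at T0 was 8.26 in horse 16, against 8.71 in the nearest. The change of SDHC, T1 minus T0, was 0.45 in horse 16, against 0.07 in the nearest. The change of ATP5IF1 was -0.57 in horse 10, against 0.09 in the nearest.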

How the results depend on the processing

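The training count of 18 members called was 8 to 18 with 1 horse left out and 11 with no filter on low values. It was 14 with libraries shifted to 1 median, 14 in limma without the trend, and 18 with a minimum mean log2 level of 7 or with robust empirical Bayes. It was 0 with cell composition covariates, 2 with no replicate block, 2 without the 3 High_N horses, 0 without horses 1, 14, 15 and 16, and 0 within EIPH or within unaffected horses. Settings chosen after seeing the data gave 2 without horses 1 and 15, 0 without horses 3, 6 and 14, and 0 with the neutrophil covariate alone. The member counts in the other 6 comparisons were 0 under each setting run. The cause of these losses was not tested, although subsets hold fewer horses. The share of all genes that rose was 3.89% in the fit reported, 0.457% to 7.21% with 1 horse left out, 1.63% with no filter, 0.00683% with cell composition covariates and with the neutrophil covariate alone, 0.0956% with no replicate block, 0.164% without the High_N horses, 0.232% without horses 1 and 15, 0.0682% without horses 3, 6 and 14, and 0 in the other 3 subsets. The lack of counts limits what can be said of depth.

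Changes of sign concerned uncalled values. For training, UQCRB was 0.039 without horses 1, 14, 15 and 16 and 0.022 without horses 1 and 15, ATP5PB was 0.10 and 0.13 in the same settings, and COX7B was -0.022 in unaffected horses. With 1 horse left out, ATP5PB ran from -0.095 to 0.054. With cell composition covariates, COX7A1 in EIPH horses at T1 was 0.076. The High_N differences of training change were then -0.0017 for SDHA, -0.11 for SDHC, -0.018 for COX14 and -0.081 for ATP5MC2. With 1 horse left out, the High_N difference at T1 ran from -0.49 to 0.0033 for UQCRB and from -0.49 to 0.098 for ATP5F1E. The difference of these horses at T0 ran from -0.29 to 0.015 for SDHC, -0.28 to 0.014 for UQCRB, -0.26 to 0.065 for ATP5MC2 and -0.18 to 0.0012 for ATP5PB. The High_N difference of training change ran from -0.21 to 0.23 for SDHC, -0.46 to 0.28 for UQCRB, -0.18 to 0.40 for COX14 and -0.51 to 0.070 for ATP5PF.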
